A study of Mus musculus with 6 samples.

Results

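The aminoacyl-tRNA synthetase genes were followed in leukemia cells from cytarabine-treated and control mice. They were chosen by gene symbol and comprise 20 genes for cytosolic enzymes and 16 for mitochondrial enzymes, that is 36 of the 23284 genes measured. All 36 were found and all 36 passed the filter on low values, a mean of at least 1 FPKM (fragment counts scaled to transcript length and to library size) over the 6 libraries. The family was picked with results of the same comparison known, so the differences between cytarabine and control given here for its members are a description and carry no test. C1498 cells, a mouse line labelled acute myeloid leukemia (AML), carried a retroviral GFP gene and were expanded from 1 clone (C1498-EGFP). They were injected intravenously, the mice of the study being female C57BL/6 J aged 8 to 10 weeks where nothing else was stated, and GFP+ CD49b+ cells were sorted from the bone marrow of femur, tibia and pelvis on day 21. RNA-Seq gave 1 library per mouse for 3 cytarabine-treated mice (cytarabine 1 to 3) and 3 controls (control 1 to 3). Cytarabine is a nucleoside analog that blocks DNA synthesis, and in the imaging mice of the study 20 μg was injected on days 19 and 20, a dose and schedule not stated for the sequenced mice in particular. The controls carried the same cells and are named both PBS-treated and untreated in the sample records.

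Aminoacyl-tRNA synthetases join amino acids to their tRNAs, which supply the ribosome. Each enzyme serves a single amino acid, except the fused enzyme of Eprs. Mammalian cells use one set of enzymes in the cytosol and a second set, also encoded in the nucleus, inside mitochondria, and the symbols of the second set end in 2. Gars and Kars each encode the enzyme of both compartments, and mitochondria charge glutamine tRNA by an amidotransferase in place of a dedicated synthetase. Several cytosolic enzymes sit together in the multisynthetase complex. When a tRNA stays uncharged, the kinase GCN2 slows general translation and favors synthesis of the transcription factor ATF4, which raises genes of amino acid synthesis and uptake together with many cytosolic synthetase genes.

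ATF4 binds amino acid response elements, so the promoters of the members were searched for the core TGATGNAA on both strands, where N is any base. The window was the 250 bases before the transcript start in the RefSeq annotation of GRCm38.p6, and 26 of the 36 members had a promoter sequence to search. The core was in 3 of 12 cytosolic promoters (Aars, Gars and Tars), in 0 of 14 mitochondrial promoters, and in 3.91% of 27025 promoters of all genes. It was also in 5 of 18 promoters of the amino acid response targets listed further on. Of the 12 cytosolic members named further on as ATF4 targets, only 7 had a promoter sequence, and 3 of these 7 held the core. The site of NRF1, a factor of many genes for mitochondrial proteins, was searched in the same way and was in 2 of 12 cytosolic promoters (Kars and Tars), 0 of 14 mitochondrial ones and 4.23% of all, and the cAMP response element TGACGTCA was in 0 of 12, 0 of 14 and 1.77%. No match of one motif overlapped a match of another. A match describes letters only, and a promoter without one may hold other forms of the element. The 120 bases before the transcript start are printed for the 3 promoters with the ATF4 core (in capitals), for Iars, the member with the lowest cytarabine value relative to control, and for Aars2, the mitochondrial partner of Aars, to show the sequences side by side.
Aars, chr8:111033722-111033841, plus strand: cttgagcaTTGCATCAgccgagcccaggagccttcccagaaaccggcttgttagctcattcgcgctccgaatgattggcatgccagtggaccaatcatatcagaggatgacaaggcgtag
Gars, chr6:55037881-55038000, plus strand: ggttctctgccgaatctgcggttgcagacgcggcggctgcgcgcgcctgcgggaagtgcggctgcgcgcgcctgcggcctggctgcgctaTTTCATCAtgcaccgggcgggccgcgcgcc
Tars, chr15:11399659-11399778, minus strand: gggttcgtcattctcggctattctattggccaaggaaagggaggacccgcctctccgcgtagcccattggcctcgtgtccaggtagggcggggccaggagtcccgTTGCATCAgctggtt
Iars, chr13:49682010-49682129, plus strand: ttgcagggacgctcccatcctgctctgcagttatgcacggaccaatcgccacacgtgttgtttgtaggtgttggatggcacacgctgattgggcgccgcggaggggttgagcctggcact
Aars2, chr17:45506712-45506831, plus strand: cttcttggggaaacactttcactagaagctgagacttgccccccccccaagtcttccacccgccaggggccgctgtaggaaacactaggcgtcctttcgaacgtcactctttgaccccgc
In Aars the core began 112 bases before the transcript start, in Gars 30 bases and in Tars 15 bases, each time read on the opposite strand.

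The depth, inferred from the steps between low FPKM values of 3174 genes with 1 transcript, was 11480000 to 18780000 reads per library, and 3 reads from a 2000-base transcript equal 0.0887 to 0.145 FPKM. The lowest member in any library was Wars2 at 2.35 FPKM, well above that step. The markers of the sorted cells were mixed. Of 12 T and NK cell genes, Cd3g (449 to 652 FPKM), Cd3e (129.6 to 199 FPKM), Lck, Zap70 and Klrd1 were above 60 FPKM in every library, Cd3d was at 3.61 to 9.99 FPKM, and Cd4, Cd8a, Cd247, Ncr1, Eomes and Tbx21 were under 1 FPKM in every library. Of 9 myeloid genes measured of 10, Lyz2 (52.8 to 233 FPKM) and Fcgr3 (8.23 to 24.4 FPKM) were clearly present, Mpo (2.33 to 71.1 FPKM) and Elane (2.81 to 81.7 FPKM) were highest in cytarabine 1, and Itgam, Cd33, Cebpa, Csf1r and Csf3r were under 6 FPKM in every library. Itga2, the gene of the sorting marker CD49b, was at 7.79 to 13.3 FPKM. Transcripts of other tissues were unevenly spread. The 16 colon epithelium genes measured of 18 listed summed to 2477 to 5649 FPKM in the 3 libraries called here those with much colon transcript (control 1 and cytarabine 2 and 3), against 26.997 to 391 FPKM in the other libraries, and the transcription factor Cdx2 was listed at 0 in cytarabine 1 and control 2. The 11 neutrophil genes measured of 12 summed to 1484 FPKM in cytarabine 1, 261 and 249 FPKM in cytarabine 2 and 3, and 1489 to 2101 FPKM in controls. The 10 heart genes summed to 7.998 to 795 FPKM with cytarabine and 60.9 to 3042 FPKM in controls, and the 8 smooth muscle genes to 123 to 1184 and 24.9 to 964 FPKM. The 8 macrophage genes measured of 9 summed to 15.9 to 62.4 and 13.9 to 155 FPKM. In such bulk RNA, fewer cells of a type and less RNA per cell cannot be told apart.

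The cytosolic genes were the more abundant set. Per transcript length, their mean FPKM over the 6 libraries ranged from 31.4 (Lars) to 267 (Gars), with a median of 85.3, and the mitochondrial genes from 3.09 (Wars2) to 50.02 (Lars2), with a median of 11.04. The median of all 11703 genes that passed the filter was 14.1 FPKM. The 3 highest members were Gars, for glycine, Kars, for lysine, and Nars, for asparagine. The first 2 of these serve both compartments. Kars was at 204, 205 and 177 FPKM across cytarabine 1 to 3 versus 177, 201 and 209 FPKM across control 1 to 3, a level that the groups shared. Nars was at 131, 130.4 and 123 FPKM under cytarabine versus 174, 155 and 165 FPKM for controls, without overlap. At the low end, Wars2, the mitochondrial tryptophan enzyme, was at 2.75, 2.35 and 2.67 FPKM under cytarabine versus 3.08, 3.83 and 3.85 FPKM for controls, with each cytarabine library below each control. Nars2, for asparagine, was at 3.26, 3.01 and 3.87 FPKM under cytarabine versus 3.75, 3.87 and 4.09 FPKM for controls, and Ears2, for glutamate, at 3.90, 3.44 and 3.55 FPKM under cytarabine versus 4.57, 5.54 and 3.17 FPKM for controls. Both overlapped between the groups.

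**Figure D1:**
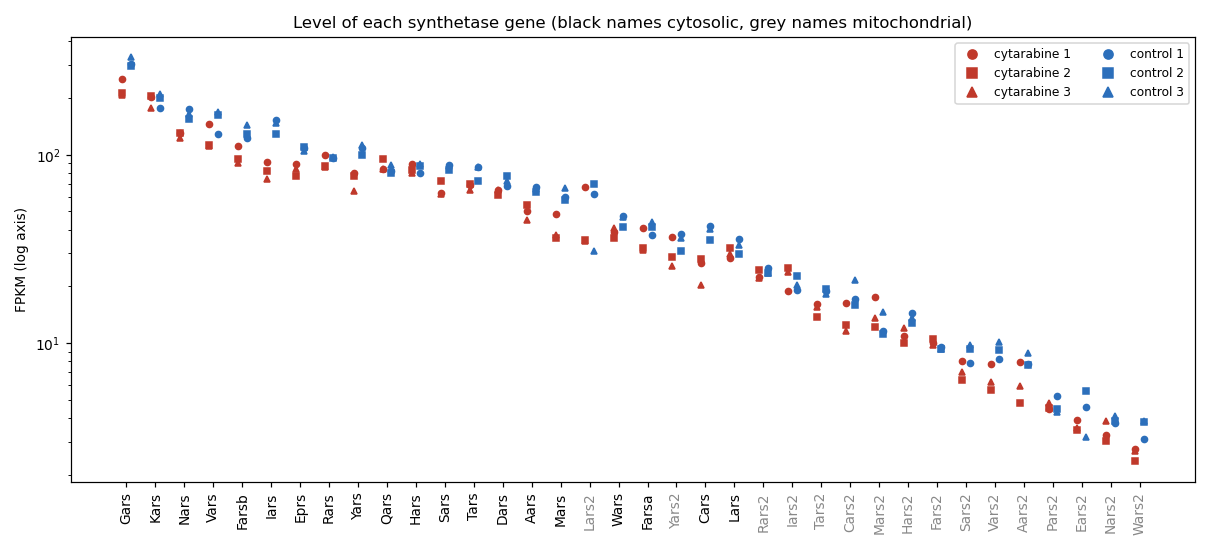
FPKM of each of the 36 synthetase genes in each of the 6 libraries on a log axis, ordered by the mean, with cytarabine in red and control in blue (symbols mark the replicate number). Gars leads at a mean of 267 FPKM and Wars2 is lowest at 3.09 FPKM, and among the mitochondrial genes Lars2 and Yars2 reach the range of the cytosolic ones.

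The comparison asked what characterizes the leukemia cells that remain after chemotherapy. With cytarabine, the isoleucine, cysteine, methionine, tyrosine and glycine enzymes of the cytosol were the furthest below control, while those for histidine, lysine, glutamine and arginine had log2 differences between -0.08 and 0.06. On the log2(FPKM + 1) scale, 19 of the 20 cytosolic genes and 13 of the 16 mitochondrial genes had a lower mean with cytarabine. The median difference was -0.34 for the cytosolic genes, with a range from -0.78 to 0.06, and -0.22 for the mitochondrial ones, from -0.44 to 0.19. Over all 11703 genes it was -0.0015. All 3 cytarabine libraries lay below all 3 controls for 13 of 20 cytosolic and 4 of 16 mitochondrial genes, where 12.9% of all genes did so, and 0 cytosolic and 1 mitochondrial gene lay above, where 10.9% of all genes did. Because this comparison entered the choice of the family, nothing is read from these shares (either direction, 23.8% of all genes). No gene of the 11703 had an adjusted p under 0.05 from limma (2038 had an unadjusted p under 0.05), so no member did.

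The cytosolic median difference minus the mitochondrial one was -0.12. Adding 1 FPKM before the log shrinks differences of low genes more, and the mitochondrial set was the less abundant one. With 0.1 FPKM added instead, the difference between the sets was -0.10, and with a filter at a mean of 5 FPKM it was -0.08. Within a library, the cytosolic median log2 level exceeded the mitochondrial median by 2.86, 2.79 and 2.60 with cytarabine and by 2.94, 2.94 and 2.81 in controls, so the groups overlapped. With quantile normalization the difference between the sets was 0.01, the opposite sign.

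**Figure D2:**
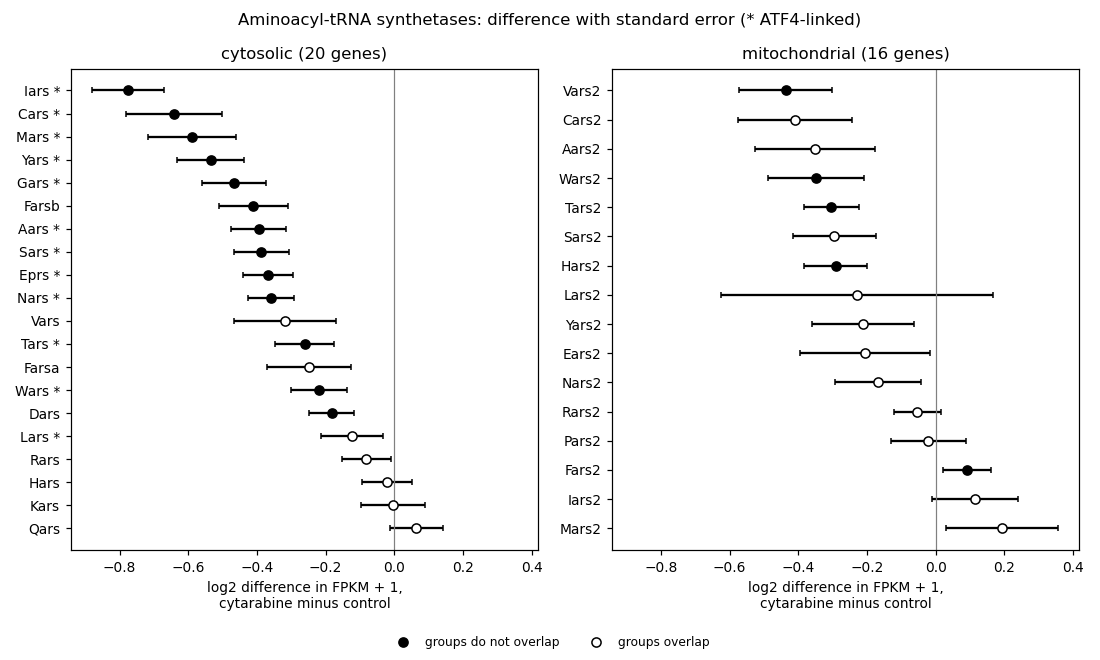
Log2 difference in FPKM + 1 between cytarabine and control (points, with the standard error from limma as bars) for the cytosolic genes on the left and the mitochondrial genes on the right. Filled points are genes whose 3 cytarabine libraries do not overlap the 3 controls, and stars mark the 12 enzymes linked to ATF4, of which 11 are filled, from -0.78 (Iars) to -0.22 (Wars).

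Of the cytosolic enzymes, 12 were listed as ATF4 targets (Aars, Cars, Eprs, Gars, Iars, Lars, Mars, Nars, Sars, Tars, Wars and Yars). The list was written with earlier results of these data known, so its contrast with the other 8 cytosolic enzymes carries no test. In 11 of the 12, all except Lars, every cytarabine library was below every control, as for 12.9% of all genes. This count carries no test since the comparison entered the choice of the family. The median log2 difference of the 12 was -0.39. Their summed level was 969, 909.6 and 855 FPKM with cytarabine and 1275, 1174 and 1286 FPKM in controls. Cytarabine 1, the treated library with the most neutrophil and the least colon transcript, had the highest treated sum, below the controls. It is 1 library, and the cause was not tested. The other 8 cytosolic enzymes had a median of -0.13, with 2 of the 8 below control in every library (Dars and Farsb, against the same 12.9% of all genes), and summed to 839, 772 and 726 FPKM against 794, 874 and 913 FPKM, with overlap.

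Iars, the isoleucine enzyme (chromosome 13, 49682100 to 49734267 in GRCm38), was at 92.1, 82.4 and 74.7 FPKM across cytarabine 1 to 3 versus 152, 129 and 147 FPKM across control 1 to 3. The cytarabine values were all under 100 FPKM and the controls all above it, a mean of 83.05 ± 8.73 FPKM (SD, n = 3) with cytarabine against 143 ± 12.4 FPKM (SD, n = 3) in controls, and the log2 difference was -0.78 (standard error 0.10). Cars, for cysteine (chromosome 7, 143557230 to 143600090), was at 26.6, 28.1 and 20.3 FPKM under cytarabine versus 42.02, 35.4 and 40.4 FPKM for controls. Its lowest control was above its highest cytarabine value, with a log2 difference of -0.64 (standard error 0.14). Mars, for methionine and thus also for the tRNA that starts translation (chromosome 10, 127296221 to 127311786), was at 48.4, 36.2 and 37.4 FPKM under cytarabine versus 59.9, 57.3 and 66.7 FPKM for controls, a log2 difference of -0.59 (standard error 0.13). Cytarabine 1 was the highest of the treated libraries for Mars and still below each control. Yars, for tyrosine (chromosome 4, 129189760 to 129219607), was at 79.8, 76.99 and 64.6 FPKM under cytarabine versus 108, 100.3 and 113 FPKM for controls, a log2 difference of -0.53 (standard error 0.10). Gars, the most abundant member (chromosome 6, 55038007 to 55079500), was at 253, 214 and 208 FPKM under cytarabine versus 304, 297 and 329 FPKM for controls, or 0.724 of the control mean, and its log2 difference was -0.47 (standard error 0.09). Aars, for alanine (chromosome 8, 111033144 to 111057664), was at 49.998, 54.1 and 45.2 FPKM under cytarabine versus 67.3, 63.4 and 66.1 FPKM for controls, a log2 difference of -0.39 (standard error 0.08). Here cytarabine 2, not cytarabine 1, was the highest treated library. Sars, for serine, and Eprs, which charges both glutamate and proline tRNA, had log2 differences of -0.39 and -0.37, Nars one of -0.36, and Tars and Wars, for threonine and tryptophan, -0.26 and -0.22. Lars, for leucine, ranged over 28.3 to 35.6 FPKM with overlap and had -0.12.

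Phenylalanine tRNA is charged in the cytosol by a tetramer of the Farsa and Farsb products. Farsb (chromosome 1, 78417975 to 78488897) was at 111, 94.7 and 90.9 FPKM under cytarabine versus 123, 128 and 143 FPKM for controls, without overlap. Farsa was at 40.6, 31.9 and 31.2 FPKM under cytarabine versus 37.6, 41.6 and 43.99 FPKM for controls, where cytarabine 1 lay within the control range. The log2 differences were -0.41 (standard error 0.10) for Farsb and -0.25 (standard error 0.12) for Farsa. Vars, for valine, was at 145, 112 and 112 FPKM under cytarabine versus 129, 162 and 169 FPKM for controls. Control 1 was below cytarabine 1 for this gene, and its log2 difference was -0.32 (standard error 0.15). Dars, for aspartate, had no overlap at a smaller difference of -0.18 (standard error 0.06). Hars, for histidine, was at 89.4, 83.5 and 79.6 FPKM under cytarabine versus 80.1, 87.4 and 88.9 FPKM for controls, and Qars, for glutamine, at 83.9, 95.5 and 83.8 FPKM under cytarabine versus 82.5, 80.4 and 88.4 FPKM for controls. For both, the cytarabine and control values were interleaved, with log2 differences of -0.02 (standard error 0.07) and 0.06 (standard error 0.08). Kars and Rars, for lysine and arginine, had -0.0028 (standard error 0.09) and -0.08 (standard error 0.07). The sign turned under 7 of 18 alternatives for Kars, 5 for Hars, 2 for Qars and 1 each for Rars and Dars (Dars 0.0006 with colon and heart scores as covariates).

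**Figure D3:**
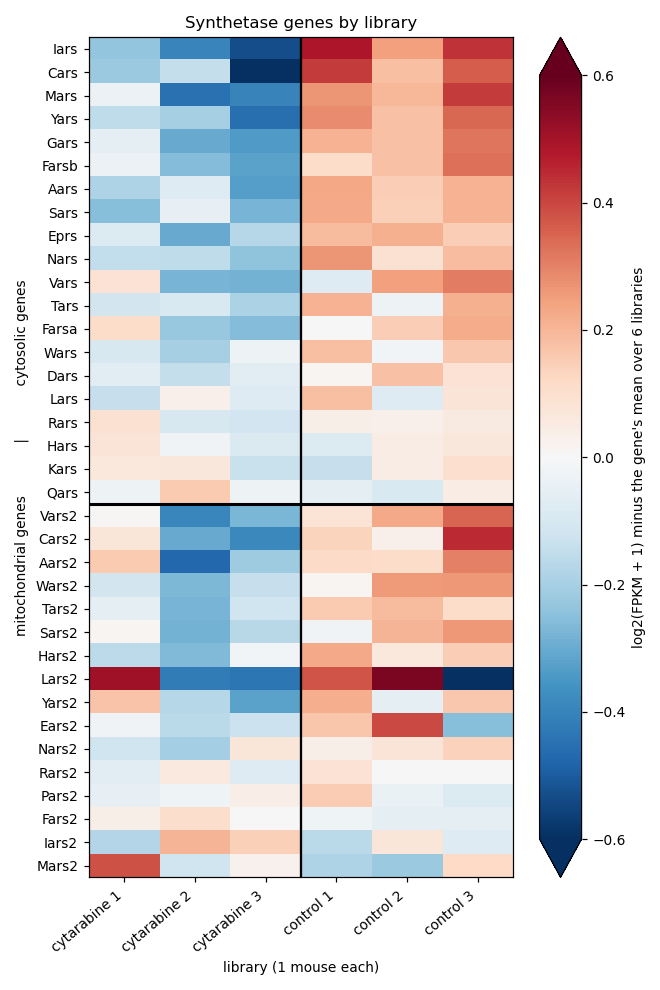
Log2(FPKM + 1) of each synthetase gene in each library minus the gene's mean over the 6 libraries (color scale from -0.6 to 0.6, red above and blue below), with cytosolic genes above the thick line and mitochondrial genes under it. The upper cytosolic rows, from Iars to Nars, are blue in all 3 cytarabine libraries and red in all 3 controls, while Lars2 is high in cytarabine 1, control 1 and control 2.

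The 8 enzymes of the multisynthetase complex (Dars, Eprs, Iars, Kars, Lars, Mars, Qars and Rars) were not alike. Of them, 4 (Dars, Eprs, Iars and Mars) were below control in every library, where 12.9% of all genes were, and the median of the 8 was -0.15 against -0.37 for the 12 cytosolic enzymes outside the complex. The Iars mean was 0.582 of control and the Qars mean 1.05 of control. The genes of its scaffold proteins, Aimp1, Aimp2 and Eef1e1, overlapped between the groups. Aimp1 had a log2 difference of -0.06 (standard error 0.09, limma adjusted p = 0.740), Aimp2 a log2 difference of -0.30 (standard error 0.14, limma adjusted p = 0.330), and Eef1e1 a log2 difference of -0.17 (standard error 0.13, limma adjusted p = 0.465). Synthetases also fall into class I and class II by the fold of the catalytic domain, and the medians were -0.23 for the 19 class I members and -0.29 for the 17 of class II, with 8 and 9 genes below control in every library (12.9% of all genes). Eprs was counted in class I but holds an enzyme of each class.

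Among the mitochondrial enzymes, Vars2, Wars2, Tars2 and Hars2 were below control in every cytarabine library and Fars2 was above. Vars2, for valine (chromosome 17, 35655634 to 35667592), was at 7.77, 5.67 and 6.22 FPKM under cytarabine versus 8.24, 9.21 and 10.1 FPKM for controls, a log2 difference of -0.44 (standard error 0.13). Tars2, for threonine, and Hars2, for histidine, had -0.30 (standard error 0.08) and -0.29 (standard error 0.09), and Wars2 -0.35 (standard error 0.14). Fars2, for phenylalanine (chromosome 13, 36117412 to 36726280), was at 9.99, 10.5 and 9.71 FPKM under cytarabine versus 9.55, 9.34 and 9.28 FPKM for controls, with a log2 difference of 0.09 (standard error 0.07) that turned to -0.02 under 1 of 18 alternatives. Cars2, for cysteine, was at 16.4, 12.4 and 11.7 FPKM under cytarabine versus 17.1, 15.9 and 21.6 FPKM for controls, and Aars2, for alanine, at 7.94, 4.79 and 5.93 FPKM under cytarabine versus 7.70, 7.65 and 8.89 FPKM for controls. In both, cytarabine 1 was within the control range and cytarabine 2 and 3 were below it. Iars2 was at 18.98, 25.1 and 23.97 FPKM under cytarabine versus 19.2, 22.7 and 20.4 FPKM for controls, and Mars2 at 17.6, 12.2 and 13.6 FPKM under cytarabine versus 11.6, 11.2 and 14.5 FPKM for controls, so that the partners of the 2 cytosolic genes for isoleucine and methionine had no lower mean with cytarabine (0.11, which turned sign under 1 of 18 alternatives, and 0.19). Yars2, for tyrosine, was at 36.6, 28.6 and 25.7 FPKM under cytarabine versus 37.8, 31.02 and 36.3 FPKM for controls, with overlap. Sars2, Nars2, Ears2, Pars2 (for proline) and Rars2 overlapped as well, with log2 differences from -0.29 (Sars2) to -0.02 (Pars2).

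Lars2, the mitochondrial leucine enzyme (chromosome 9, 123366927 to 123462666), stood apart. It was at 67.5, 35.1 and 34.7 FPKM across cytarabine 1 to 3 versus 61.7, 70.3 and 30.8 FPKM across control 1 to 3, and varied far more within the groups (SD 0.58 on the log2 scale) than the other members. Rn45s, the entry for precursor ribosomal RNA, was at 170.4, 121 and 121 FPKM under cytarabine versus 199, 200.5 and 58.5 FPKM for controls. Both were high in cytarabine 1, control 1 and control 2 and lowest in control 3, and the cause of this likeness was not tested. Rn45s was picked after the values were seen. The log2 difference of Lars2, -0.23 (standard error 0.40), was within its spread, and turned to 0.53 among the libraries with little colon transcript against -0.80 among those with much. Leaving Lars2 out, which was tried after seeing the data, the mitochondrial median was -0.21. The summed mitochondrial level overlapped between the groups with Lars2 (202 to 255 FPKM with cytarabine and 233 to 260.2 FPKM in controls) and did not without it (167 to 187 FPKM against 189.96 to 202 FPKM). The ratio of the cytosolic to the mitochondrial sum overlapped with Lars2, at 7.10 to 8.31 with cytarabine and 7.87 to 9.46 in controls. Without Lars2 the ratio was 9.38 to 10.05 with cytarabine and 10.7 to 10.9 in controls, without overlap.

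The ratio of the cytosolic to the mitochondrial gene for the same amino acid does not depend on a common scale factor of a library. In 16 of 17 pairs the cytosolic gene was the higher in all 6 libraries, by up to 46.6-fold (Nars to Nars2 in control 1). The exception was leucine, where Lars exceeded Lars2 in 1 library. The cytarabine ratios were all below the control ratios in 5 of 17 pairs and all above in 1. Of single genes, 12.9% lay below and 10.9% above without overlap, and no such share was computed for ratios of other gene pairs. Iars to Iars2 was 4.85, 3.29 and 3.11 with cytarabine and 7.95, 5.66 and 7.20 in controls, and Mars to Mars2 2.75, 2.97 and 2.76 with cytarabine and 5.18, 5.09 and 4.59 in controls. These 2 pairs were the furthest apart, with means of 3.75 ± 0.957 against 6.94 ± 1.17 for isoleucine and 2.83 ± 0.127 against 4.95 ± 0.321 for methionine (SD, n = 3 each). Farsb to Fars2 was 11.1, 8.99 and 9.35 with cytarabine and 12.8, 13.7 and 15.4 in controls, and Yars to Yars2 2.18, 2.69 and 2.51 with cytarabine and 2.86, 3.23 and 3.10 in controls. Eprs against Pars2, for proline, was the fifth such pair, and Eprs enters 2 pairs as Fars2 does. Cars to Cars2 was 1.62, 2.27 and 1.74 with cytarabine and 2.46, 2.22 and 1.87 in controls, and Aars to Aars2 6.30, 11.3 and 7.62 with cytarabine and 8.73, 8.28 and 7.44 in controls. Both overlapped, and Cars2 and Aars2 had a lower mean with cytarabine too. Vars to Vars2 was the pair with higher ratios, 18.7, 19.8 and 18.01 with cytarabine and 15.7, 17.6 and 16.7 in controls.

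**Figure D4:**
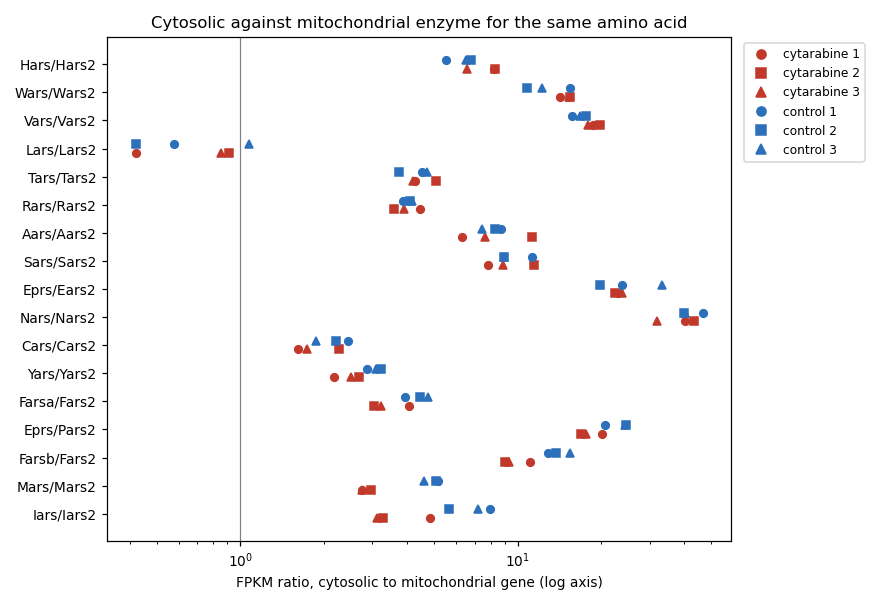
FPKM ratio of the cytosolic to the mitochondrial gene for the same amino acid in each library (log axis), with cytarabine in red and control in blue and pairs ordered by the log2 difference between the groups. At the bottom, Iars/Iars2 has means of 3.75 with cytarabine and 6.94 in controls, and only Lars/Lars2 falls below 1.

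The SD of the members within groups on the log2 scale had a median of 0.11 for the cytosolic genes, 0.16 for the mitochondrial genes and 0.15 for all genes tested. It was lowest for Fars2 (0.04) and highest, after Lars2, for Aars2 and Ears2 (0.24 and 0.24). The mean log2 level of cytarabine 2 and 3, with much colon transcript, was compared with cytarabine 1. This mean was lower for 17 of 20 cytosolic genes (median difference -0.14) and 10 of 16 mitochondrial genes (median -0.13). The median of all genes was -0.05. Control 1, also with much, was below the mean of controls 2 and 3 for 10 of 20 and 8 of 16 genes. The median differences were 0.0025 and -0.03. When only libraries with little colon transcript were used (cytarabine 1, control 2 and control 3), the cytosolic median was -0.23 with 18 of 20 lower, and the mitochondrial median -0.13 with 11 of 16 lower, while the median of all genes was 0.0080. For those with much (cytarabine 2, cytarabine 3 and control 1) the medians were -0.37 with 17 of 20 lower and -0.26 with 13 of 16, and 0.0072 for all genes. Each side has a single library in 1 group and allows no test. Iars was lower on both sides (-0.57 and -0.95), as were Cars (-0.49 and -0.79) and Yars (-0.41 and -0.61). When the fit had colon and heart scores as covariates, the ATF4-linked median was -0.52, that of the other cytosolic enzymes -0.06 and the mitochondrial median -0.04. With both scores added, few libraries were left to estimate this fit from. Single members moved widely in it, Cars from -0.64 to -1.14 and Lars2 from -0.23 to 0.56. Colon transcript was also uneven between the groups, so no conclusion is drawn from these medians. The part of neutrophil transcripts, which were lowest in cytarabine 2 and 3, was not tested.

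The genes around the synthetases were taken from lists written with earlier results of these data known. At an unadjusted p under 0.05, 9.81% of all genes were lower and 7.6% higher with cytarabine, and none passed after adjustment. Of 21 amino acid response targets, the ATF4-driven genes of serine, glycine, one-carbon and asparagine synthesis and of the stress response, 20 were tested, 11 were lower at that p and 0 higher, with a median log2 difference of -0.52. Chac1, which degrades glutathione, was at 4.35, 6.03 and 4.92 FPKM under cytarabine versus 11.1, 9.15 and 10.1 FPKM for controls, a log2 difference of -0.87 (standard error 0.13, limma adjusted p = 0.131). Mthfd2, of the mitochondrial folate cycle, was at 102, 86.5 and 77.4 FPKM under cytarabine versus 169, 143 and 154 FPKM for controls, a log2 difference of -0.81 (standard error 0.12, limma adjusted p = 0.131). Atf5, a transcription factor of the same response, had a log2 difference of -0.74 (standard error 0.14, limma adjusted p = 0.137). The mean was higher for 5 of the 20. Of these, Cth (0 to 6.31 FPKM), Nupr1 (2.48 to 32.99 FPKM) and Ddit3 were highest in the libraries with much colon transcript. Ddit4 and Atf3 were not. Of 11 amino acid transporters, 9 were tested and 7 were lower at that p, with a median of -0.45. Slc1a4, a carrier of alanine, serine and cysteine, was at 7.50, 6.64 and 5.71 FPKM under cytarabine versus 21.7, 16.7 and 20.02 FPKM for controls, a log2 difference of -1.43 (standard error 0.13, limma adjusted p = 0.131). Slc6a9, a glycine carrier, was at 2.80, 4.21 and 3.45 FPKM under cytarabine versus 13.1, 9.08 and 9.62 FPKM for controls, a log2 difference of -1.37 (standard error 0.18, limma adjusted p = 0.131). Slc7a5, which carries large neutral amino acids such as leucine and isoleucine, had a log2 difference of -0.71 (standard error 0.14, limma adjusted p = 0.149). These 3 transporters were named from those with each cytarabine library below each control, as for 12.9% of all genes, so that separation is no result.

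The mRNA of Atf4 itself, whose protein is controlled mainly by translation, was at 190.4, 224 and 194 FPKM under cytarabine versus 214, 220.4 and 224 FPKM for controls, a log2 difference of -0.12 (standard error 0.08, limma adjusted p = 0.420), with overlap. Of the 7 genes of uncharged tRNA sensing, 1 was lower and 1 higher at an unadjusted p under 0.05, against 9.81% and 7.6% of all genes. Eif2ak4, the gene of GCN2, was at 13.7, 12.3 and 11.8 FPKM under cytarabine versus 14.1, 14.7 and 15.9 FPKM for controls, a log2 difference of -0.23 (standard error 0.09, limma adjusted p = 0.268). Impact, which encodes an inhibitor of GCN2 activation, was at 8.18, 7.98 and 7.84 FPKM under cytarabine versus 4.62, 6.21 and 5.09 FPKM for controls, a log2 difference of 0.52 (standard error 0.12, limma adjusted p = 0.156). It was named because its cytarabine libraries were all above the controls, as for 10.9% of all genes. Of the 5 cytosolic elongation factor genes, 3 were lower at that p, against 9.81% of all genes. Eef1g had a log2 difference of -0.36 (standard error 0.07, limma adjusted p = 0.147), Eef1d a log2 difference of -0.34 (standard error 0.09, limma adjusted p = 0.182), and Eef2 a log2 difference of -0.28 (standard error 0.09, limma adjusted p = 0.214). Of 9 mitochondrial translation factors 2 were lower at that p, against 9.81% of all genes, with a median of -0.13. Mrrf, which recycles mitochondrial ribosomes, was at 11.7, 10.1 and 9.49 FPKM under cytarabine versus 14.9, 15.5 and 15.96 FPKM for controls, a log2 difference of -0.53 (standard error 0.09, limma adjusted p = 0.136). Tufm, which brings charged tRNA to them, had a log2 difference of -0.23 (standard error 0.08, limma adjusted p = 0.236), and Mtif2, an initiation factor, a log2 difference of -0.15 (standard error 0.06, limma adjusted p = 0.309). Of the glutamine amidotransferase and formylase genes, 3 of 4 were measured (Gatc, Qrsl1 and Mtfmt), and none was lower or higher at an unadjusted p under 0.05. Their log2 differences ran from -0.06 to -0.0064. Tarsl2, a further threonine enzyme gene, was under 1 FPKM in every library and was not tested.

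**Figure D5:**
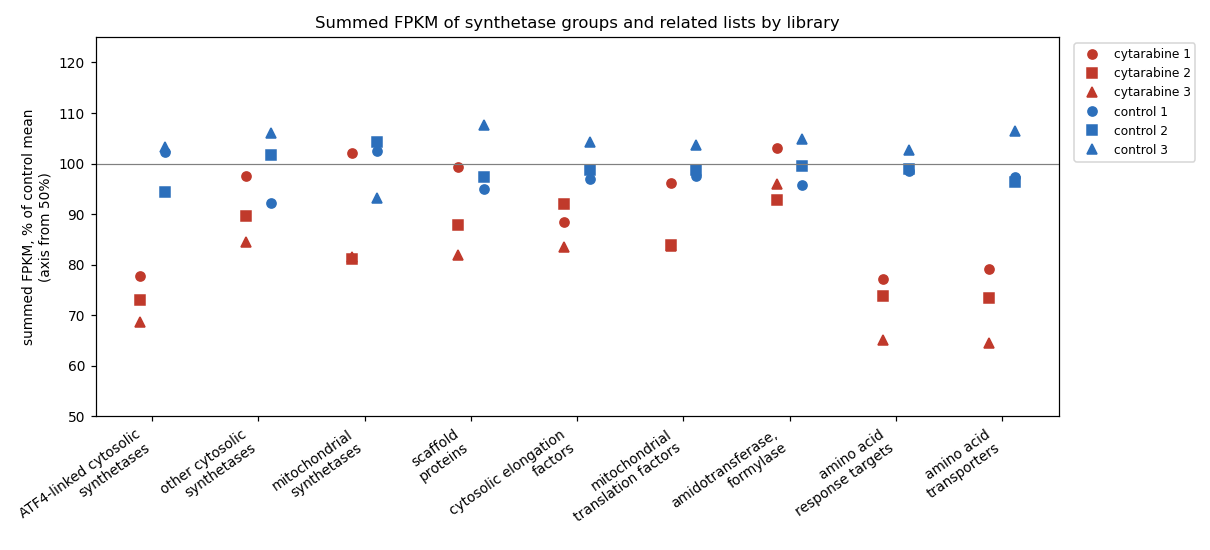
Summed FPKM of each group of genes in each library as a percentage of the control mean (axis from 50%), with cytarabine in red and control in blue. The ATF4-linked synthetases (77.9%, 73.1% and 68.6% in cytarabine 1, 2 and 3), the amino acid response targets and the transporters lie below all controls. So do the cytosolic elongation factors (83.6% to 91.9% with cytarabine) and the mitochondrial translation factors (83.7% to 96.2%). The other cytosolic synthetases, the scaffold genes and the amidotransferase and formylase genes overlap. The mitochondrial synthetases overlap only with Lars2 included.

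Some members share sequence with neighbors. In the GENCODE M21 annotation of GRCm38, 10 of the 36 share exon bases with another protein-coding gene, up to 22.9% of the exon bases of Iars2 with Rab3gap2. Hars and Hars2 start next to each other on opposite strands and share 195 exon bases, Mars shares 68 with Ddit3 on the opposite strand, and Aars shares 1326 with Exosc6 on the same strand. The library kit keeps strand, but whether the FPKM estimate used it is not given in the sources used here, so values of these members may hold reads of the neighbor.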

How the data were processed

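Reads (75 bases, single-end) were aligned by the authors to mm10 with TopHat 2.0.13 (Bowtie2 2.2.3, SAMtools 0.1.19), and the authors deposited FPKM values per gene symbol from Cufflinks 2.2.1, so length and library size were divided out. The annotation and strand setting are not given in the sources used here. Groups and replicate numbers come from the source names in the sample records, and the sample titles carry other numbers. Libraries with the same replicate number are therefore not known to be paired. The 11703 genes averaging 1 FPKM or more were fitted on log2(FPKM + 1) by limma (version 3.58.1, R 4.3.3, functions lmFit and trended eBayes, two-sided, p-values adjusted by Benjamini-Hochberg over all these genes), a step tested on simulated data. The members, lists and tests were chosen with earlier results of these data known. Values in every library are given for non-overlapping members with the largest differences (at most 8 in each direction), their partners of the other compartment and the 3 highest and 3 lowest members, and other lists give at most 3 genes in each direction without overlap. Rn45s and the other genes named beyond this rule were chosen after values were seen. Separate mice gave the replicates. Depth was inferred with a fragment length of 200 bases, since FPKM keeps no counts, and intervals for counting error were not made. Positions are from GENCODE M21 (GRCm38), promoters from RefSeq (GRCm38.p6). Alternatives were other pseudocounts, filters and scalings, eBayes without trend, covariates, the replicate block, each library left out and the sides of the colon division. Genes listed here but without a row in the files are not analysed here, and a result on 1 related gene is not reported here. Figures used matplotlib 3.10.9.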

Additional observations from a re-analysis of the deposited data

How the results depend on the processing

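The cytosolic median difference was negative under every one of its 18 alternatives, between -0.41 and -0.23, the latter among libraries with little colon transcript, and spanned -0.37 to -0.29 when single replicates were dropped. The mitochondrial median was negative under its 19 alternatives. It was -0.34 with quantile normalization, -0.039 with the colon and heart covariates, -0.13 among libraries with little colon transcript, and -0.32 to -0.18 with one replicate left out (-0.32 without cytarabine 1). The difference between the sets was 0.0103, with its sign turned, after quantile normalization, -0.37 with the covariates and -0.16 to -0.03 with one replicate left out. The cause was not tested. Single members moved by more than the spread between replicates in 22 of 36 cases with the covariates (7 changed sign), 14 of 36 among libraries with little colon transcript (7 changed sign), 6 of 36 among those with much and 5 of 36 with quantile normalization, among them Tars2 (from -0.30 to -0.07) and Vars (from -0.32 to -0.05), both with the covariates. Under the other alternatives 0 moved that far, and several of these, such as eBayes without trend, cannot move a difference.

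Genes with an adjusted p under 0.05 numbered 0, and 1 with a pseudocount of 0.1, 1 with 0.5, 2 with no eBayes trend and 0 to 6 with one replicate left out (6 without cytarabine 1). Genes with an unadjusted p under 0.05 numbered 2038, and 554 with the covariates and 1176 to 4111 with one replicate left out (the highest without cytarabine 1, the lowest without control 3). With the replicate block they numbered 994, and at an adjusted p under 0.05 they numbered 0 as without it. For replicate numbers 1, 2 and 3, deviations from the group mean correlated at -0.709, -0.247 and -0.594 between the 2 libraries sharing the number. For each number, 1 of these libraries had much and the other had little colon transcript. The part of colon transcript in these deviations was not tested. The correlations therefore cannot tell whether such samples share more than a number. With FPKM alone, counting error cannot be given for each gene.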
